A study of Homo sapiens with 35 samples.

Results

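The BCL2 family genes that decide between survival and death at the mitochondrion were followed in RPMI-8226, an established line of human multiple myeloma, as the cells recovered from the proteasome inhibitor carfilzomib. The 10 genes were taken by symbol among the protein-coding entries of the count table. The rule itself used no values, but the list was chosen with earlier results of these data known. The genes were the survival genes BCL2, BCL2L1 and MCL1, the BH3-only genes BCL2L11, PMAIP1, BBC3, BIK and BID, and the effectors BAX and BAK1. All 10 had counts, passed a filter on low counts and were among the 17999 protein-coding entries tested, of 19665 listed. RNA was sequenced from 5 subcultures on each of 7 days, giving 35 libraries: day 0, and days 1, 2, 4, 6, 8 and 10 after a 1 h pulse of 750 nM carfilzomib followed by wash-out.

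The sample labels list carfilzomib for day 0 too, whereas the study's methods state that day 0 was taken before the drug was added, and day 0 is treated here as the untreated baseline. All subcultures were of the same line, were split from a single expanded culture before the pulse and carried no genetic change made for the experiment. The p-values therefore measure the spread between subcultures and not between separately grown cultures, although legends of the study call the same data independent experiments. From day 2 on, collection came shortly before each change of medium. On day 0 the cells were set to a fixed density in fresh medium and left to equilibrate before the drug was added. The medium was fresher on day 1 than on later days, and cell density was set again on days 6 and 8. The days thus also differ in age of medium and in how recently density was set. Comparisons between days cannot separate these from time after the pulse, and their part in the results was not tested. These are bulk libraries, in which fewer cells that make a transcript and less transcript per cell cannot be told apart.

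The proteins of this family act on the outer mitochondrial membrane. BCL2, BCL-XL (the product of BCL2L1) and MCL1 hold cells alive by binding the effectors BAX and BAK and the BH3-only proteins. The BH3-only proteins BIM (BCL2L11), NOXA (PMAIP1), PUMA (BBC3), BIK and BID transmit stress by occupying the survival proteins or by activating the effectors, which then open pores that release cytochrome c. Plasma cells and myeloma cells are known to lean on MCL1, and both MCL1 and NOXA are short-lived proteins that the proteasome degrades. Only transcripts were measured here.

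Each library held between 6519392 and 10962890 estimated counts, with a median of 7643975. The median correlation between libraries of the same day lay between 0.973 and 0.982, and no library stood apart. All 8 markers of plasma and myeloma cells had counts, and their summed level ran from 1308 to 2343 CPM (counts scaled to a common library size with TMM factors) across the 35 libraries, with the lowest daily mean, 1408 CPM, on day 1. The summed markers of B cells, T cells, myeloid cells, fibroblasts and erythroid cells reached at most 16.9, 4.81, 2.21, 2.38 and 5.17 CPM in any library, and COL1A2 had no count. The part that these shifts in marker level play in the results was not tested. CPM does not account for transcript length, so levels were compared between days of the same gene and not between genes.

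**Figure D1:**
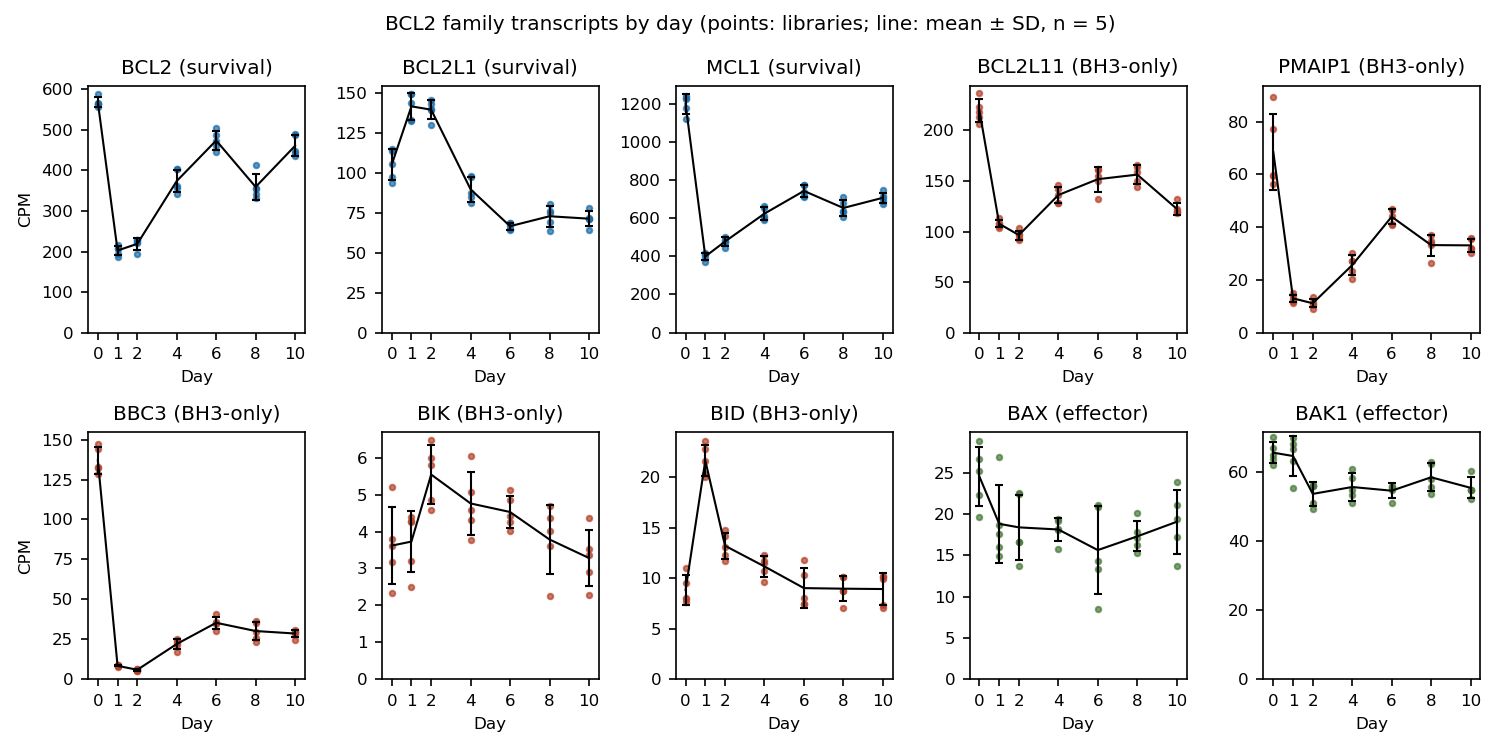
Level of each of the 10 genes (CPM, linear axis from 0) against day, with a point for each library and a line through the mean with its SD (n = 5 per day). BCL2, MCL1, BCL2L11, PMAIP1 and BBC3 have their highest mean on day 0, at 568, 1200, 219, 68.4 and 137 CPM, whereas BCL2L1 and BID have theirs on day 1, at 141 and 21.7 CPM.

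On day 1 the calls among the 10 genes went in both directions. At Q ≤ 0.05 (edgeR quasi-likelihood test, Benjamini–Hochberg adjustment over all tested entries), 5 of the 10 genes were lower than on day 0, namely BBC3, PMAIP1, MCL1, BCL2 and BCL2L11, against 27.3% of all entries. BCL2L1 and BID were the 2 higher genes, against 25.4% of all entries, so higher calls were no more common than over all entries. The median log2 fold change of the 10 genes was -0.71, beside -0.06 over all entries. On day 2 all 10 genes passed the threshold, with 7 lower and 3 higher, where 24.4% of all entries were lower and 23.2% higher. The shares over all entries, here and below, include entries that did not pass the filter on low counts, as all 10 genes did. In a fit of the 12301 entries that passed it, 4564 were lower and 4338 higher on day 1. In either direction 8902 were called, so calls on day 1 were about as common among these entries as among the 10 genes. On day 10, 2798 of the entries in that fit were lower and 3020 higher. The shares among such entries were thus higher than those printed.

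From day 4 on every call was downward. On days 4, 6 and 8 the same 8 genes were called lower each time, all but BID and BIK, against a background of 20.1%, 17.0% and 18.6% of entries, and none was higher, against 19.0%, 17.5% and 18.2%. On day 10 the count was 7 lower and 0 higher, against 15.8% and 16.1% of entries. Among days 4, 6, 8 and 10, the median of the 10 genes against day 0 was lowest on day 6, at -0.59, and highest on day 10, at -0.46, while the median over all entries stayed between -0.02 and 0.00. With a change beyond 2-fold also required, the count was 6 on day 1 and 5 on day 2, against 20.4% and 15.3% of all entries. At the later time points it was 1 (BBC3) on day 6, against 6.71% of entries, and 2 (BBC3 and PMAIP1) on days 4, 8 and 10, against 9.41%, 8.18% and 5.93%.

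**Figure D2:**
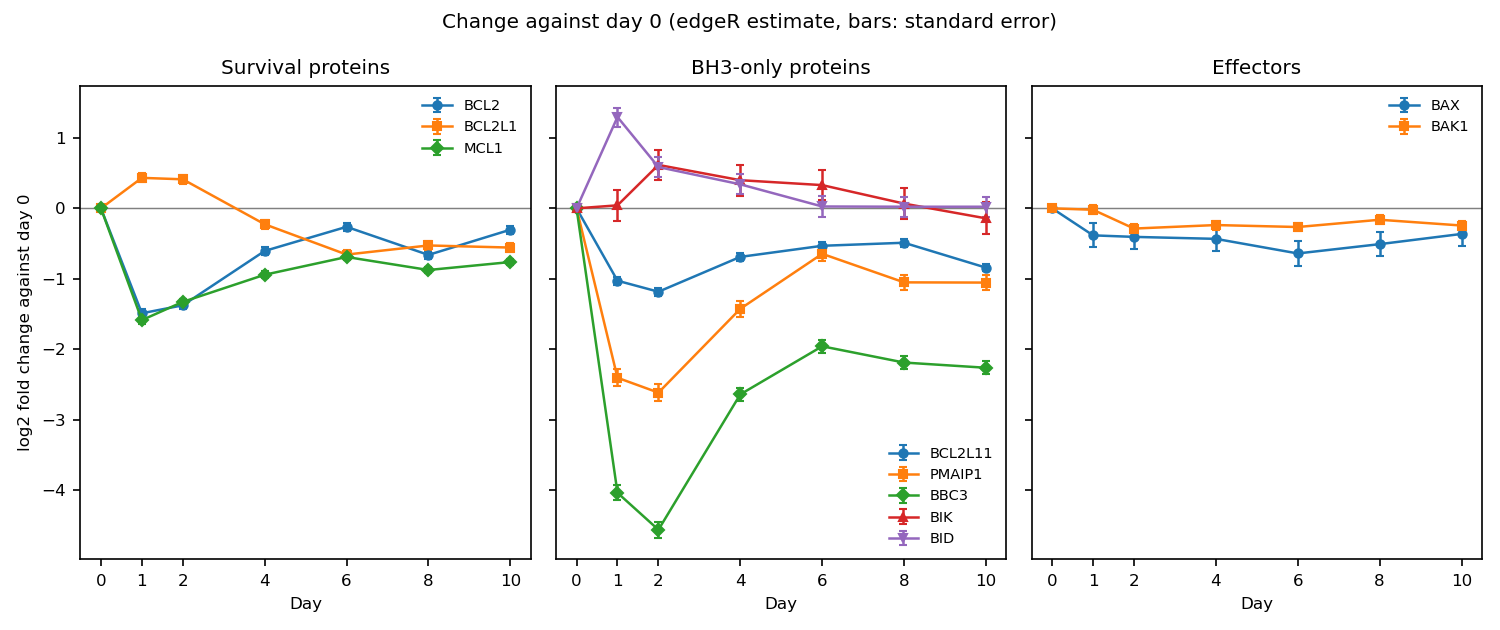
Log2 fold change against day 0 for each gene on each day, with the standard error of the edgeR fit, in panels for the survival, BH3-only and effector genes. BBC3 reaches -4.56 on day 2 and BID 1.30 on day 1, the lowest and the highest points among the 10 genes.

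BBC3, which encodes the BH3-only protein PUMA (chr19:47220822-47232766, minus strand, GRCh38), fell furthest of the 10 genes. On day 0 its libraries held 147, 144, 128, 133 and 132 CPM. On day 1 they held 8.53, 8.66, 8.47, 8.40 and 7.61 CPM, which is 6.08% of the day 0 mean. No library of any later day reached the lowest day 0 library. The log2 fold change was -4.04 ± 0.11 (SE) on day 1 and -4.56 ± 0.11 on day 2 (edgeR Q = 1.15e-29 and 8.06e-31), a 23.6-fold reduction by day 2.

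The day 2 libraries of BBC3, at 5.17, 5.36, 6.20, 5.86 and 6.45 CPM, all lay below those of day 1, and that step was itself called (log2 fold change -0.52 ± 0.15, edgeR Q = 0.00317). Between days 2 and 4 the transcript rose by 1.92 ± 0.13 on the log2 scale, the largest step upward in the family. It was still at 20.8% of day 0 on day 10, with libraries at 28.1, 31.0, 29.7, 29.2 and 24.7 CPM and a log2 fold change of -2.26 ± 0.09 (edgeR Q = 8.33e-23). BBC3 was thus below day 0 by more than 2-fold on every day measured. The counts behind the lowest day were few, between 36 and 55 per library on day 2 against 663 to 1048 on day 0.

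PMAIP1, which encodes NOXA, the BH3-only partner of MCL1 (chr18:59899996-59904305, plus strand), followed a similar course at a smaller scale. Its day 0 libraries were uneven, at 89.4, 59.7, 77.2, 59.5 and 56.2 CPM. The day 1 libraries were at 12.1, 13.7, 11.3, 14.9 and 12.8 CPM, and the day 2 libraries at 10.5, 13.4, 10.9, 9.10 and 11.6 CPM. Even the lowest day 0 library was thus far above every library of days 1 and 2. The fall was 2.40 ± 0.12 on the log2 scale on day 1 and 2.61 ± 0.12 on day 2 (edgeR Q = 1.04e-20 and 7.50e-22).

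PMAIP1 then rose between days 2 and 4 and again between days 4 and 6, by 1.19 ± 0.13 and 0.78 ± 0.11, to 43.9 ± 2.87 CPM (SD, n = 5), or 64.2% of day 0. It fell again by day 8 (log2 fold change -0.41 ± 0.11, edgeR Q = 0.0307) and stood at 31.7, 35.9, 32.0, 30.1 and 35.6 CPM on day 10. That last level was below every day 0 library, with a log2 fold change of -1.05 ± 0.11. The step from day 6 to day 8 was no longer called when replicate 2, 4 or 5 of day 6 or replicate 3 or 4 of day 8 was left out (Q between 0.0555 and 0.148).

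The upstream sequences of BBC3 and PMAIP1, the 2 genes that fell most, are shown beside that of BAX, whose protein-coding entry changed less. BAK1 changed less still, and its window, which held none of the motifs below, is not printed. Short motifs of stress-responsive factors are often sought in such sequences. Promoter windows of 250 bases before the annotated start were taken from RefSeq (GRCh38.p14), in which 8 of the 10 genes were found, with 13 windows. Both strands were searched for the cAMP response element core TGACGT, which 7.1% of all 35116 windows of that length hold, for the E-box CACGTG, which 6.34% hold, and for TGATGNAA, a form of the amino acid response element that 3.14% hold. CACGTG reads the same on both strands, and none of the 3 motifs overlapped in these windows. Capitals mark a motif, and any part of a window that lies inside the annotated gene is left out. The coordinates are chr18:59899746-59899995 (plus strand) for PMAIP1, chr19:47232767-47232917 (minus strand) for BBC3 and chr19:48954625-48954814 (plus strand) for BAX.
PMAIP1: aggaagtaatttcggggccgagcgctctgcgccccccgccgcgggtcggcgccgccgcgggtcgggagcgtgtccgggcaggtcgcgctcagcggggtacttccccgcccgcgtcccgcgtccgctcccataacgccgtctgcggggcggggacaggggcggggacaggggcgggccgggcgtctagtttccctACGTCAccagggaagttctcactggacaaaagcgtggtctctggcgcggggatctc
BBC3: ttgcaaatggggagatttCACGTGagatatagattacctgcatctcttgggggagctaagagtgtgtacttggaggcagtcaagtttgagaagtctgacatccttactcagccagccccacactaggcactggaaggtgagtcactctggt
BAX: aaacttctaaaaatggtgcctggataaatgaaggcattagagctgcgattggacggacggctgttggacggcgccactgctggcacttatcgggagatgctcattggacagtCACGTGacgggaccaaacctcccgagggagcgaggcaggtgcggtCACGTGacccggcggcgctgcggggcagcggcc

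PMAIP1 held 1 cAMP response element core, written above as its reverse complement ACGTCA, which begins 56 bases before the start. BBC3 held 1 E-box, which begins 232 bases before the RefSeq start. BAX held 4 E-boxes in its whole window, of which the upper part is printed, and 5 of the 35116 windows (0.0142%) held as many. Of the 5 windows of BID, 2 that overlap held 1 E-box, the same site in both. The windows of BCL2, BCL2L1, BCL2L11 and BAK1 held none of these letters. MCL1 and BIK had no window. A match describes the letters only and was not tested as a binding site.

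BCL2L11, which encodes BIM, an activator of BAX and BAK that also binds every survival protein of the family (chr2:111119378-111168444, plus strand), was the third BH3-only gene that fell. It stood at 213, 218, 223, 237 and 207 CPM on day 0, at 108, 105, 113, 109 and 104 CPM on day 1 and at 93.1, 103, 98.0, 96.5 and 91.6 CPM on day 2. The groups did not overlap, and the level on day 2 was 2.27-fold lower than on day 0 (log2 fold change -1.18 ± 0.05, edgeR Q = 1.02e-21).

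Unlike PMAIP1 and BBC3, BCL2L11 had its second-highest mean on day 8, at 156 ± 9.38 CPM (SD, n = 5), in a range that overlapped with that of day 6. It then fell by 0.35 ± 0.05 on the log2 scale to libraries of 133, 119, 120, 122 and 119 CPM on day 10, all below those of day 8 (edgeR Q = 7.87e-06). Only 2 of the 10 genes changed between days 8 and 10, against 10.1% of all entries, and the other was BCL2, which rose. The day 10 level of BCL2L11 was 55.8% of day 0. Its smaller steps were less firm. The fall from day 1 to day 2 (log2 fold change -0.16, Q = 0.0223) lost its call without replicate 3 of day 1 or replicate 1 or 5 of day 2, with Q between 0.0546 and 0.0648. The rise from day 4 to day 6 (0.16, Q = 0.0491) lost it without any of 8 of the 10 libraries, replicates 1 to 4 of either day, with Q between 0.0503 and 0.248. It also lost it with RLE factors (Q = 0.0721), without scaling factors (0.10, Q = 0.288), in a fit of the libraries of those days only (Q = 0.178) and with all biotypes summed (0.08, Q = 0.598).

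MCL1, the survival gene on which myeloma cells are known to rely (chr1:150560895-150579738, minus strand), fell together with the BH3-only genes. Its day 0 libraries held 1120, 1180, 1230, 1245 and 1225 CPM and its day 1 libraries 407, 411, 415, 372 and 393 CPM. The day 1 mean was 33.3% of day 0, with a log2 fold change of -1.59 ± 0.05 (edgeR Q = 7.44e-28). Day 1 was its lowest day, and no day 1 library reached the lowest library of any other day.

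MCL1 rose in 3 successive steps, by 0.26 ± 0.05, 0.39 ± 0.05 and 0.25 ± 0.05 on the log2 scale between days 1, 2, 4 and 6, and it was the only gene of the family besides BIK that was called higher on day 2 than on day 1. It reached 744 ± 30.2 CPM on day 6 and was at 677, 689, 747, 704 and 720 CPM on day 10, or 59.0% of day 0 (log2 fold change -0.76 ± 0.05, edgeR Q = 9.68e-17). Every library of days 6, 8 and 10 remained below every library of day 0. The third of these rises lost its call with all biotypes summed (0.18, Q = 0.0887). The fall from day 6 to day 8 (-0.18 ± 0.05, Q = 0.0206) lost its call in a fit of the libraries of those days only (Q = 0.132), with all biotypes summed (-0.12, Q = 0.496), and without replicate 1, 2 or 5 of day 6 or replicate 3, 4 or 5 of day 8, with Q between 0.0563 and 0.139. MCL1 overlaps ADAMTSL4 on the opposite strand, whose entries held 719 counts over all 35 libraries.

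BCL2, the founding survival gene of the family (chr18:63123346-63320128, minus strand), fell by nearly as much on day 1. Its libraries went from 588, 565, 564, 568 and 557 CPM on day 0 to 207, 195, 217, 186 and 208 CPM on day 1, or 35.6% (log2 fold change -1.49 ± 0.06, edgeR Q = 2.75e-24). Days 1 and 2 overlapped. BCL2 came closer to its day 0 level than MCL1, at 83.4% on day 6, yet no library of that day, between 445 and 505 CPM, reached the lowest of day 0.

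BCL2 was the only one of the 10 genes called in both of the last steps. It fell by 0.40 ± 0.06 on the log2 scale from day 6 to day 8 and rose by 0.36 ± 0.06 from day 8 to day 10 (edgeR Q = 6.08e-06 and 1.10e-05), both without overlap of the libraries. The day 8 libraries held 357, 412, 355, 331 and 341 CPM, and the day 10 libraries 490, 487, 444, 447 and 435 CPM. Cell density was set again on days 6 and 8, and its part in these 2 steps was not tested. Between days 6 and 8, 3 of the 10 genes were called lower (BCL2, MCL1 and PMAIP1) and none higher, where 2.56% of all entries were called in either direction. That count fell to 1, BCL2, when replicate 2 or 5 of day 6 or replicate 3 or 4 of day 8 was left out.

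BCL2L1, which encodes BCL-XL (chr20:31664452-31723989, minus strand), was the survival gene that rose. Its day 0 libraries stood at 97.6, 105, 93.3, 115 and 114 CPM, its day 1 libraries at 132, 149, 144, 149 and 133 CPM and its day 2 libraries at 146, 143, 140, 139 and 130 CPM. Every library of days 1 and 2 was above every day 0 library. The log2 fold change was 0.43 ± 0.06 on day 1 and 0.41 ± 0.06 on day 2 (edgeR Q = 1.45e-07 and 4.08e-07), a 1.35-fold and a 1.33-fold increase.

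BCL2L1 then fell while the genes named above rose. Its steps into day 4 and into day 6 were -0.64 ± 0.06 and -0.43 ± 0.07 (edgeR Q = 8.43e-11 and 8.53e-06), and on day 6 its libraries held 66.6, 64.6, 68.8, 68.6 and 64.0 CPM, all below day 0. It remained at 71.2 ± 4.88 CPM on day 10, or 67.9% of day 0, without a called step after day 6. On day 4 its libraries, from 80.8 to 98.0 CPM, overlapped those of day 0. The call of that day (-0.23 ± 0.06, Q = 0.00414) was lost without scaling factors (-0.11, Q = 0.142) and with all transcript biotypes of a symbol summed (-0.12, Q = 0.276). ABALON, on the opposite strand within BCL2L1, held 605 counts over all libraries.

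**Figure D3:**
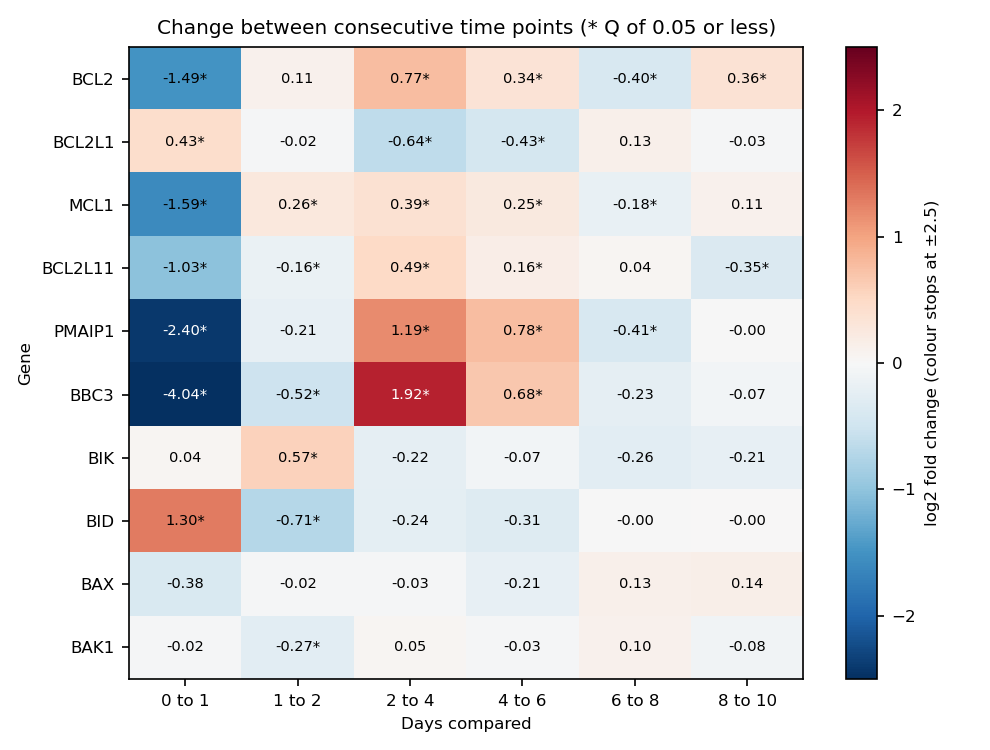
Log2 fold change of each gene between consecutive time points, in colour and as a number, with an asterisk where Q ≤ 0.05. Between days 2 and 4 and between days 4 and 6, the 5 genes called higher are BCL2, MCL1, BCL2L11, PMAIP1 and BBC3, and the 1 called lower is BCL2L1.

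In the steps between consecutive days, 6 genes were called from day 1 to day 2, where 39.6% of all entries were, and they went in both directions: BIK and MCL1 up, and BAK1, BBC3, BCL2L11 and BID down. In the next 2 steps, into day 4 and into day 6, 6 genes were called each time, against 30.6% and 12.1% of all entries. They were the same genes in both steps, with the 5 that had fallen on day 1 now higher and BCL2L1 lower.

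BID, the BH3-only protein that caspase-8 cleaves to link death receptors to mitochondria (chr22:17734138-17774770, minus strand), was the gene that rose most. It stood at 9.56, 7.62, 8.04, 11.0 and 7.89 CPM on day 0 and at 21.6, 23.6, 20.0, 22.8 and 20.3 CPM on day 1. The groups did not overlap, and the increase was 2.46-fold (log2 fold change 1.30 ± 0.13, edgeR Q = 5.12e-11). It fell by 0.71 ± 0.13 to 13.2 ± 1.28 CPM on day 2, still above every day 0 library (0.59 ± 0.14, Q = 4.12e-04).

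From day 4 on, the libraries of BID overlapped those of day 0. The difference was 0.34 ± 0.14 on day 4 (edgeR Q = 0.0533) and between 0.02 and 0.03 from day 6 to day 10. On day 4 the gene did pass without scaling factors (0.45, Q = 0.00655), with genes of low counts removed (0.35, Q = 0.0306), in DESeq2 (0.34, Q = 0.047), or without replicate 1 or 4 of day 0 or replicate 2 or 5 of day 4, with Q between 0.0141 and 0.0447. BID rested on 40 to 150 counts per library.

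BIK, a BH3-only gene whose protein sits mainly at the endoplasmic reticulum (chr22:43110750-43129712, plus strand), was the sparsest gene, with 13 to 56 counts per library. Its level was 3.62 ± 1.05 CPM at baseline and 5.55 ± 0.80 CPM (SD, n = 5) at its highest, on day 2. Only on day 2 was it called, at 0.62 ± 0.21 on the log2 scale (edgeR Q = 0.0146), and the libraries of that day, at 4.59, 6.01, 4.84, 6.48 and 5.82 CPM, overlapped those of day 0, at 3.80, 3.17, 2.32, 3.61 and 5.20 CPM. The call was lost without replicate 3 of day 0 (0.50, Q = 0.0618), and a call on day 4 appeared without replicate 5 of day 0 (0.58, Q = 0.0427). The rise from day 1 to day 2 (0.57 ± 0.21, Q = 0.0261) was lost without replicate 1 or 5 of day 1 or replicate 2 or 4 of day 2, with Q between 0.0565 and 0.103, and with all biotypes summed (0.54, Q = 0.0697). From day 6 to day 10 its log2 fold change lay between -0.14 and 0.33 with standard errors of 0.22 to 0.23.

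BAK1, an effector that resides in the mitochondrial membrane (chr6:33572547-33580293, minus strand), moved little. Its libraries held 62.2, 70.1, 64.0, 67.1 and 65.1 CPM on day 0 and 66.7, 68.3, 63.2, 70.0 and 55.5 CPM on day 1, and these overlapped (log2 fold change -0.02 ± 0.06, edgeR Q = 0.838). On day 2 they held 51.0, 56.1, 56.4, 56.0 and 49.2 CPM, all below day 0, at -0.29 ± 0.06 (Q = 1.67e-04), and BAK1 was still at 84.5% of day 0 on day 10 (-0.24 ± 0.06, Q = 0.00225).

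Several calls for BAK1 were lost under other settings. Without scaling factors it was no longer called on day 4 (-0.12, Q = 0.111) or day 8 (-0.11, Q = 0.150), and its difference on day 1 turned to 0.09 (Q = 0.206). With all biotypes summed the calls of days 2, 4, 8 and 10 were lost, with values between -0.18 and -0.06 and Q between 0.096 and 0.664. All counts of BAK1 were protein-coding, so its own counts were the same in that fit. What differed were the entries fitted beside it and, with these, the library sizes and scaling factors. The call on day 8 (-0.16, Q = 0.040) was also lost in a fit of the libraries of days 0 and 8 only (-0.15, Q = 0.106), and without replicate 2, 4 or 5 of day 0 or replicate 1, 3 or 5 of day 8, with Q between 0.0692 and 0.188.

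BAX, the effector that moves from the cytosol to mitochondria (chr19:48954815-48961798, plus strand), had the largest SD relative to its mean of the 10 genes on days 1, 2 and 6. It stood at 25.2, 19.7, 22.3, 26.7 and 28.9 CPM on day 0 and at 16.0, 15.0, 18.6, 26.9 and 17.6 CPM on day 1, where replicate 4 alone lay within the day 0 range. On day 6 its libraries ran from 8.52 to 21.1 CPM, with 52 to 147 counts each. Its log2 fold changes were -0.38 ± 0.17, -0.40 ± 0.17, -0.43 ± 0.17, -0.64 ± 0.17, -0.51 ± 0.17 and -0.36 ± 0.17 from day 1 to day 10, called on days 2, 4, 6 and 8 (edgeR Q = 0.0436, 0.0402, 0.00275 and 0.0165) and not on days 1 and 10 (Q = 0.0567 and 0.103).

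Most calls for BAX depended on single libraries. The day 1 change was called without replicate 4 of day 1 (-0.54, Q = 0.00744) or replicate 2 of day 0 (-0.47, Q = 0.0259). The day 2 call was lost without replicate 1, 4 or 5 of day 0 or replicate 3, 4 or 5 of day 2 (Q between 0.058 and 0.132), the day 4 call without replicate 1, 4 or 5 of day 0 or replicates 2 to 5 of day 4 (Q between 0.0592 and 0.132), and the day 8 call without replicate 5 of day 0 or replicate 2 of day 8 (Q of 0.0619 and 0.0533). Without scaling factors the calls of days 2 and 4 were lost (-0.28, Q = 0.170, and -0.32, Q = 0.135). The day 6 call stayed in each of these fits. The day 1 change, with Q = 0.0567 in the main analysis, was called with RLE factors (Q = 0.039), with genes of low counts removed (Q = 0.0311), in a fit of the libraries of days 0 and 1 only (Q = 0.0336), with DESeq2 (Q = 0.0409) and with all biotypes summed, but not without scaling factors.

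The count table lists each symbol by transcript biotype, and BAX was the gene for which this mattered most. Over all libraries, 64.9% of its counts were in protein-coding transcripts and 31.4% in transcripts with a retained intron, which do not encode the protein. At baseline the retained-intron share was 41.3%, from 27.9% to 56.6% in single libraries, and between 26.2% and 35.9% on the later days. With all biotypes summed, BAX was called lower on day 1 (-0.66, edgeR Q = 5.07e-12) and on day 10 (-0.66, Q = 9.96e-12). In BBC3 the retained-intron share was 16.3% over all libraries, between 11.3% (day 10) and 20.9% (day 2). The protein-coding entry held 98.3% of the counts of BCL2 and 99.1% of those of BCL2L11, and all those of BCL2L1, BAK1 and BIK. Summing biotypes thus left the counts of BCL2L1, BAK1 and BIK unchanged. What differed were the entries fitted beside them (41178 symbols) and, with these, the library sizes and scaling factors.

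Because the family acts by binding between its members, 3 ratios of counts were followed within each library, on the log2 scale with 0.5 added to each count. They were compared with day 0 by exact two-sided permutation tests over every way to split the 10 libraries into 2 groups of 5, adjusted over all 18 tests. The smallest p this design allows is 0.00794, for which the adjusted value was 0.0238. Only the change of a ratio can be read, since the 2 genes differ in transcript length.

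MCL1 fell against BCL2L1. The log2 ratio was 3.52, 3.48, 3.72, 3.43 and 3.43 in the day 0 libraries and 1.62, 1.46, 1.53, 1.32 and 1.56 in those of day 1. The difference was -2.02, a ratio at 0.247 of its day 0 value (exact permutation p = 0.00794, the smallest possible), and all 5 libraries lay below day 0. It was -1.74 on day 2 and -0.71 on day 4, with the same p. On day 6 the mean ratio was within the day 0 range, with 2 of the 5 libraries below it, and the difference of -0.04 did not pass (exact permutation p = 0.627), at a time when both transcripts were lower than on day 0.

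On day 8 the MCL1 to BCL2L1 ratio was again lower, at 3.42, 3.37, 2.98, 3.02 and 3.07, all below day 0 (difference -0.35, exact permutation p = 0.00794), and on day 10 the difference of -0.20 did not pass after adjustment (exact permutation p = 0.0397, adjusted 0.0893). The day 8 call was lost without any one of the 5 day 0 libraries (adjusted p between 0.0794 and 0.122, exact permutation). It was kept without any one of the day 8 libraries. The day 10 difference passed without replicate 5 of day 10 (-0.25, adjusted exact permutation p = 0.0204) and with all biotypes summed (-0.22, adjusted exact permutation p = 0.0408).

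**Figure D4:**
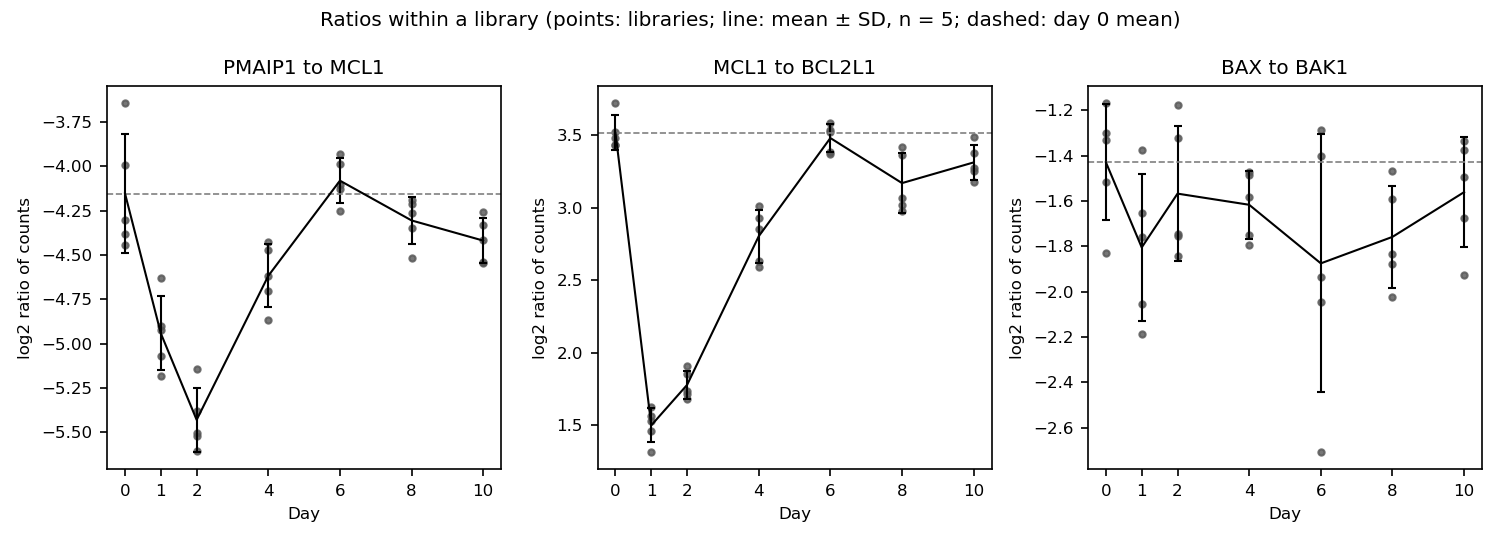
Log2 ratio of counts within each library against day, for PMAIP1 to MCL1, MCL1 to BCL2L1 and BAX to BAK1, with points for libraries, a line through the mean with its SD (n = 5) and a dashed line at the day 0 mean. The MCL1 to BCL2L1 ratio drops from between 3.43 and 3.72 on day 0 to between 1.32 and 1.62 on day 1, and its mean is 3.48 on day 6.

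PMAIP1 fell further than MCL1, the protein that NOXA binds. The log2 ratio of PMAIP1 to MCL1 was -3.65, -4.30, -3.99, -4.38 and -4.44 on day 0 and -5.07, -4.90, -5.18, -4.63 and -4.92 on day 1. Every day 1 library was below every day 0 library, with a difference of -0.79 (exact permutation p = 0.00794, adjusted 0.0238). On day 2 the libraries were lower again, at -5.50, -5.14, -5.52, -5.60 and -5.38, a difference of -1.28 with the same p. The day 4 difference was -0.46 (exact permutation p = 0.0159, adjusted 0.0408), and those of days 6, 8 and 10 were 0.07, -0.15 and -0.27 (exact permutation p = 0.675, 0.413 and 0.135).

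Replicate 1 of day 0 had the highest PMAIP1 to MCL1 ratio, and without it the day 1 difference was -0.66 and no longer passed (adjusted exact permutation p = 0.0571). The day 4 difference was lost without replicate 1 or 3 of day 0 or any library of day 4 (adjusted exact permutation p between 0.0612 and 0.107). The BAX to BAK1 ratio did not pass on any day in protein-coding counts, with differences between -0.45 and -0.13 (exact permutation, adjusted p between 0.127 and 0.473). With all biotypes summed it was lower on every day, by -0.44 to -0.80, with an adjusted exact permutation p of 0.0110 each time.

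Over the 35 libraries, the log2 levels of BCL2, MCL1, BCL2L11, PMAIP1 and BBC3 were correlated with each other, with Pearson r between 0.803 (BCL2 with BCL2L11) and 0.955 (MCL1 with BBC3). BID ran against BCL2, with r of -0.80, and with BCL2L1, with r of 0.745. These values describe libraries that share their day, so most of the spread is the time course itself. The transcripts with the courses most like those of the members were EDEM1 (r = 0.985) and EIF2AK4 (0.977) for BCL2, RAB11FIP1 (0.976) and PPP1R15B (0.973) for MCL1, and EIF4G2 (0.970) and LRWD1 (0.952) for BCL2L1. They were PPP1R15B (0.977) and ZFP36 (0.975) for BBC3, JAK1 (0.976) and ABCG1 (0.967) for PMAIP1, ZFP36L1 (0.949) and PELI1 (0.943) for BCL2L11, and FTL (0.925) and UBE2L3 (0.923) for BID. For BAK1 they were FBRS (0.804) and SERPINB8 (0.792), and BIK (CD320, 0.673, and APLN, 0.662) and BAX (CES2, 0.647, and MGAT2, 0.634) had no close match.

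Among the other genes of the BCL2 family, 5 of the 13 tested had a day 0 mean under 1 CPM and rested on few counts. Of all 13, day 1 had 2 called higher and 3 called lower, and day 10 had 1 and 3. These counts are near or below the shares over all entries on day 1 (25.4% higher and 27.3% lower), and on day 10 the shares were 16.1% and 15.8%. The median log2 fold changes were 0.02 and -0.21. The BH3-only genes BMF and HRK fell and came back. BMF went from 111 ± 3.95 CPM on day 0 to 31.6 ± 3.30 on day 1 (log2 fold change -1.81 ± 0.11, edgeR Q = 1.23e-17) and was at 104 ± 5.14 on day 4, in a range that overlapped day 0. HRK went from 17.4 ± 1.49 to 3.96 ± 1.03 CPM (-2.13 ± 0.16, Q = 5.34e-15) and exceeded day 0 on day 6, at 29.6 ± 5.34 CPM (0.76 ± 0.13, Q = 3.99e-06).

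BNIP3, a mitochondrial protein with a role in mitophagy, rose from 28.7 ± 3.09 to 60.6 ± 2.72 CPM on day 1 (log2 fold change 1.07 ± 0.09, edgeR Q = 4.87e-14) and to 79.9 ± 3.30 on day 4. BOK, a relative of BAX, was barely present, at 0.57 ± 0.25 CPM on day 0 and 0.10 ± 0.14 on day 10 (Q = 0.0281), with libraries at 0 on every later day.

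Downstream of the mitochondrial step, the list of apoptosome genes, caspases and their inhibitors held more genes that rose than fell. Of 19 tested, 9 rose and 1 fell on day 1 (median log2 fold change 0.25), beside 25.4% and 27.3% of all entries. By day 10 the counts were 10 and 2 (median 0.22), beside 16.1% and 15.8% of all entries. APAF1, the scaffold that cytochrome c activates, went from 7.17 ± 0.79 to 14.5 ± 2.04 CPM on day 1 (1.03 ± 0.13, edgeR Q = 1.11e-08) and was at 12.3 ± 2.32 CPM on day 10. CASP6, an executioner caspase, went from 4.46 ± 1.19 to 11.9 ± 2.12 CPM on day 1 (1.40 ± 0.19, Q = 3.67e-08).

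VDAC3, a channel of the outer mitochondrial membrane, rose most in that list, from 39.1 ± 4.82 to 240 ± 14.9 CPM on day 1 (log2 fold change 2.62 ± 0.07, edgeR Q = 8.88e-30), and was at 46.7 ± 3.69 CPM on day 10. BIRC3, an inhibitor of apoptosis that NF-κB induces, did not pass on day 1 (0.12 ± 0.10, Q = 0.302) and was lower from day 2 on, at 99.2 ± 5.29 CPM on day 10 against 255 ± 25.7 on day 0 (-1.36 ± 0.10, Q = 3.10e-14). Other inhibitors on the list differed from BIRC3. BIRC5 was lower on day 1 (-0.32 ± 0.11, edgeR Q = 0.0139). It was higher from day 2 on, at 2.33 ± 0.09 on day 2 (Q = 1.62e-23) and 0.85 ± 0.10 on day 10 (Q = 6.75e-09). BIRC2 was higher on day 10 (0.22 ± 0.07, Q = 0.00893), and XIAP and BIRC6 did not pass on that day.

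**Figure D5:**
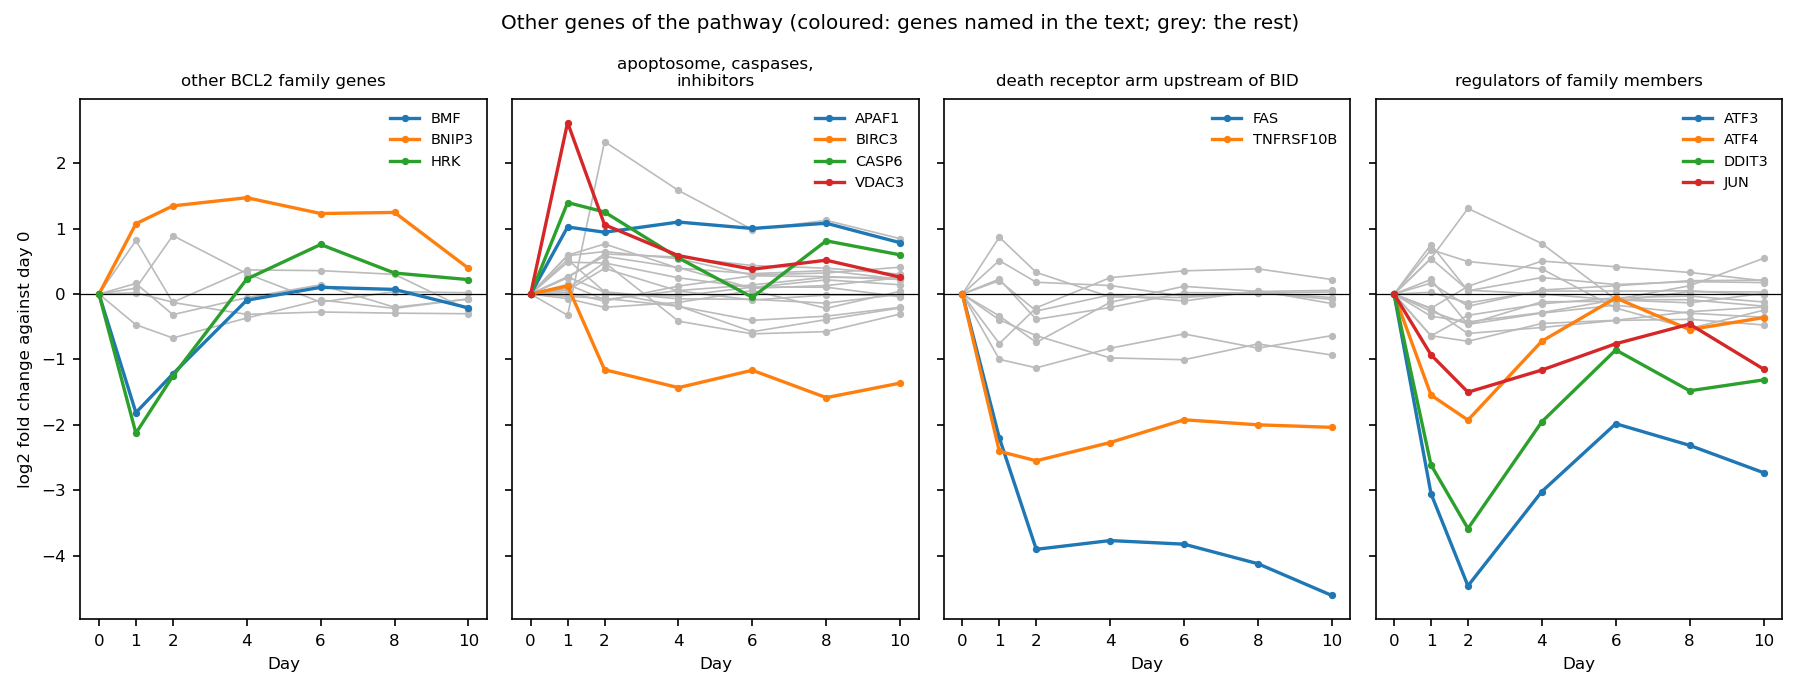
Log2 fold change against day 0 of the genes on the 4 pathway lists, leaving out genes with a mean under 1 CPM on every day. Up to 4 genes of each list, with the largest changes on day 1 or 10, are in colour. The others, among them BIRC5, BIRC2, XIAP and BIRC6, are in grey. FAS and TNFRSF10B stay at -4.61 and -2.04 on day 10, whereas BMF and HRK are at -0.21 and 0.22.

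Upstream of BID, the death receptor list split on day 1, with 4 of its 10 genes called higher and 6 called lower, while day 10 had 1 and 4 (median log2 fold change -0.36 and -0.11). The shares over all entries were 25.4% and 27.3% on day 1 and 16.1% and 15.8% on day 10. TNFRSF10B, the TRAIL receptor DR5, fell from 174 ± 16.2 to 32.7 ± 9.50 CPM on day 1 (-2.40 ± 0.12, edgeR Q = 3.24e-20) and was at 42.4 ± 5.71 CPM on day 10. FAS, the receptor for FAS ligand, fell from 14.4 ± 1.97 to 3.11 ± 1.43 CPM on day 1 (-2.20 ± 0.53, Q = 4.37e-04) and was at 0.58 ± 0.80 CPM on day 10, with libraries at 0. Neither gene was back in its day 0 range on day 10. The 4 genes called higher on day 1 were TNFRSF10A, TNFRSF1A, FADD and CASP8. FADD went from 26.6, 36.2, 24.8, 33.5 and 41.0 CPM on day 0 to 60.0, 60.0, 57.4, 56.6 and 61.0 on day 1. TNFRSF10A went from 71.3, 72.2, 74.7, 59.5 and 60.4 CPM to 89.7, 78.4, 79.6, 73.1 and 76.3, in ranges that overlapped.

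Of the 17 regulators of family members that were tested, 5 rose and 9 fell on day 1, and day 10 had 3 and 7 such calls (median log2 fold change -0.22 and -0.18). The risers were near the shares over all entries, 25.4% on day 1 and 16.1% on day 10, and the shares of entries that fell were 27.3% and 15.8%. The stress-induced transcription factors of the list, which are known to act on PMAIP1, BBC3 and TNFRSF10B, were among the lower ones. ATF4 fell from 856 ± 49.6 to 293 ± 15.1 CPM on day 1 (-1.54 ± 0.06, edgeR Q = 1.49e-25) and was at 821 ± 46.0 CPM on day 6, where it did not pass (Q = 0.432). DDIT3, which encodes CHOP, fell from 60.8 ± 9.20 to 9.94 ± 1.94 CPM (-2.61 ± 0.14, Q = 1.30e-19), and ATF3 from 108 ± 20.4 to 13.1 ± 2.87 CPM (-3.05 ± 0.13, Q = 5.69e-23).

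ATF3 and DDIT3 had their lowest means on day 2, at 4.91 ± 0.96 and 5.02 ± 1.31 CPM, as did BBC3 and PMAIP1. ATF4 also had its lowest mean on day 2, at 225 ± 10.2 CPM. All of these had a higher mean on day 6 than on days 4 and 8. JUN fell from 47.2 ± 4.54 to 24.8 ± 3.79 CPM on day 1 (-0.93 ± 0.13, edgeR Q = 6.61e-08) and was at 21.3 ± 2.56 CPM on day 10. These transcripts were measured in the same libraries as the BCL2 family, and whether any of them acted on it was not tested.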

How the data were processed

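RNA of 35 RPMI-8226 libraries was prepared with a directional kit. The deposited values are estimated counts, whole numbers per gene symbol and transcript biotype without normalization for library size. The authors made them with Kallisto 0.44.0 against GENCODE release 28 (GRCh38), with GC bias adjustment, and summarized them with tximport, adjusted for transcript length. Whether reads were assigned by strand is not given in the sources used here, so reads of genes that overlap on opposite strands may not be separated.

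The 17999 protein-coding entries with a count were fitted in edgeR 4.0.16 (R 4.3.3; TMM factors 0.9285 to 1.0776, day as a factor, all 35 libraries), with Benjamini–Hochberg adjustment (Q ≤ 0.05). Standard errors were taken from the fold change and its F statistic. CPM are scaled to TMM-normalized library sizes. At this depth a gene with 13 to 56 counts per library, such as BIK, is measured far less precisely than MCL1. Ratios were compared by exact permutation, written out in Python 3.11.15. The code was tested on simulated data. Alternatives were DESeq2 1.42.0, RLE factors, no factors, filterByExpr, a replicate block, only the libraries of the days compared, all biotypes summed, stricter thresholds, another pseudocount (2 in place of 0.5) and each library left out.

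The members, the pathway and marker lists and the tests were chosen with earlier results of these data known. All members were described. Of each pathway list, up to 4 genes past Q ≤ 0.05 and 2-fold on day 1 or 10 were named, with the largest changes, and for each member the 2 transcripts of highest Pearson correlation over 35 libraries. The inhibitors BIRC5, BIRC2, XIAP and BIRC6 were named in addition, beside BIRC3. So were the death receptor genes called higher on day 1, beside FAS and TNFRSF10B. Gene positions came from GENCODE release 44. The same replicate numbers recur on each day. Same-numbered libraries did not deviate together, as given with the limits, but this does not exclude that they came from the same subculture. No protein sequence was used here.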

Additional observations from a re-analysis of the deposited data

Results flagged for a closer look

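In 91 groups of 5 libraries (member levels and ratios by day), the library farthest out was compared with its nearest neighbour by Dixon's criterion, which chance meets in about 1 of 20 groups, and 4 groups met it. Replicate 4 of day 2 had 193 CPM of BCL2, below 221 to 228 CPM in the other 4 libraries. Replicate 1 of day 10 had 133 CPM of BCL2L11, above 119 to 122 CPM in the others. Replicate 5 of day 1 had 7.61 CPM of BBC3, below 8.40 to 8.66 CPM in the others, a small gap in absolute terms. Replicate 4 of day 6 had 51.0 CPM of BAK1, below 55.0 to 56.1 CPM in the others. Without any of these libraries, the calls of the gene concerned against day 0 did not change on that day.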

How the results depend on the processing

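The 30 fold changes of BCL2, MCL1, BCL2L11, PMAIP1 and BBC3 against day 0 kept their direction and their call in all 510 refits, under 7 other settings and with each library of the 2 days left out. The number of members called stayed within 1.5 times the main value except with a change beyond 2-fold also required, when it was 5, 2, 1, 2 and 2 on the days from 2 to 10, and except for day 8 against day 6, where leaving out a library gave 1 to 3 members. BAK1 on day 1 turned to 0.094 without scaling factors and 0.14 with all biotypes summed, neither called.

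With all biotypes summed the BAX to BAK1 ratio passed on days 1, 2, 4, 6, 8 and 10, at -0.80, -0.44, -0.61, -0.55, -0.71 and -0.49, and the MCL1 to BCL2L1 ratio on day 10, at -0.22. With each library left out, the PMAIP1 to MCL1 difference ran from -0.87 to -0.66 on day 1 and from -0.54 to -0.34 on day 4, and that of MCL1 to BCL2L1 from -0.063 to 0.014 on day 6, -0.41 to -0.30 on day 8 and -0.25 to -0.15 on day 10. Uncalled changes that turned sign with a library left out were those of BAK1 on day 1 (-0.060 to 0.015), BIK on days 1 (-0.077 to 0.186), 8 (-0.053 to 0.241) and 10 (-0.266 to 0.030), and BID on days 6 (-0.084 to 0.116), 8 (-0.015 to 0.12) and 10 (-0.026 to 0.122). The cause of these shifts was not tested, but the tests with a library left out have fewer samples.

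Same-numbered libraries did not deviate together (median correlation 0.002 over 105 pairs, beside -0.001 over 420 pairs of different number). With the replicate block the members called were 8, 10, 8, 8, 8 and 7 on days 1 to 10 and 6, 6, 6, 3 and 2 in the steps, the added gene on day 1 being BAX (Q = 0.0372), and the calls over all entries on day 1 were 4545 higher and 4769 lower. For ratios, 5 pairs are too few for a paired exact test to pass, and none was run. Over all entries, the calls between days 6 and 8 were 461, 738 with DESeq2, 254 with the libraries of these days only and 829 with all biotypes summed. Without scaling factors the calls higher and lower over all entries became 5109 and 3507 on day 2 (from 4181 and 4397), 4398 and 2739 on day 4 (from 3421 and 3622) and 723 and 1765 from day 4 to day 6 (from 1096 and 1076). BIK had the fewest counts, 13 to 56 per library, and the largest standard errors against day 0 of the 10 members.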
